A study of Rattus norvegicus with 35 samples.

Results

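The brown fat thermogenic genes Ucp1, Cidea, Cpt1b, Dio2, Ppargc1a, Elovl3 and Prdm16 were followed in the abdominal left mammary gland of weanling female rats. Members were the probes whose gene name in the array files was one of these 7 symbols, with a trailing "_predicted" or "_mapped" removed. This gave 9 of 41012 probes, and they covered 6 of the 7 genes. No probe carried the name Prdm16, a zinc finger regulator of brown fat identity, and Prdm16 was not analysed here. Of the 6 genes, 4 (Ucp1, Cidea, Cpt1b and Dio2) had a probe bright enough to enter the test across 16152 genes.

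Brown adipocytes burn fatty acids to make heat. Noradrenaline acts on beta-adrenergic receptors and raises cAMP, which releases fatty acids and switches on transcription of Ucp1, the inner membrane protein that lets protons return to the mitochondrial matrix without making ATP. Ppargc1a is the coactivator that drives mitochondrial genes in this response, Dio2 makes active thyroid hormone inside the cell, Cpt1b admits long-chain fatty acids to the mitochondrion and is also the isoform of skeletal muscle, Elovl3 lengthens fatty acids, and Cidea is a lipid droplet protein. The rodent mammary gland grows inside a fat pad that is mainly white fat, in which scattered brown-like adipocytes are known in young animals.

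Pregnant Sprague-Dawley rats received bisphenol A (BPA), a plastics monomer with oestrogenic activity, by gavage at 25 (BPA25) or 250 (BPA250) µg/kg body weight per day from gestational day 10 to 21. Some dams at each dose also ate chow with 250 mg/kg of genistein, the soy phytoestrogen (roughly 5.5 mg/kg/day), or with 2000 mg/kg of indole-3-carbinol (I3C), found in cabbage and broccoli (roughly 45 mg/kg/day). The 7 groups of 5 offspring at postnatal day 21 were the negative control, BPA25, BPA250, BPA25 with genistein, BPA250 with genistein, BPA25 with I3C and BPA250 with I3C, and the labels hold no group given a diet alone. Each sample is gland RNA from offspring of these dams, which per the series text came from different litters, hybridised to 1 array; in such bulk RNA, fewer cells of a type and less RNA per cell cannot be told apart.

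Levels are log2 signals relative to the 75th percentile of all probe spots on the same array, so 0 is the signal of a probe brighter than 75% of spots. A probe was counted as detected on an array where more than 0.5 of its spots were flagged well above background by the scanner software. The 35 arrays lie on 10 slides. On the 4 arrays of slide 3 (replicate 2 of control, BPA25, BPA250 and BPA25 with genistein), 93.4% to 96.4% of probes were well above background, against 65.2% to 72.2% on the 6 arrays of slides 4 and 5 and 31.9% to 49.8% on the other 25. Cidea and the bright Cpt1b probe were lower on slide 3 than elsewhere (mean 2.12 against 3.20 for Cidea and 1.27 against 3.24 for Cpt1b), and the main member and list differences are also given without them below.

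The probes behind the dim and the variable members are shown here because detection decides what can be said of each gene. All are 60 bases long, written 5′ to 3′ as in the array files, with positions on the rn3 build that the files use. The Ucp1 probe lies at chr19:26532513-26532572 on the minus strand and is spotted 10 times per array. The Ppargc1a probe lies at chr14:64368058-64368117 and the Elovl3 probe at chr1:251614687-251614746, both on the plus strand.
Ucp1: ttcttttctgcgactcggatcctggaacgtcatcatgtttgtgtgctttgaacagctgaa
Ppargc1a: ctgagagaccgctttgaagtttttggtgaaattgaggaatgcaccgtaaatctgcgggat
Elovl3: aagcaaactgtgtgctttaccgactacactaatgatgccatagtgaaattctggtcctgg

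Ucp1, the most variable member, and Cidea, a bright and steadier one, are shown as examples. The 250 bases before their starts in RefSeq (GRCr8 build) are shown with capitals at every motif match. The motifs were TGACG, the core of a cAMP response element, and TATAAA, each searched on both strands. In the windows of these examples the motifs did not overlap. The Ucp1 window, chr19:41721422-41721671 on the minus strand, holds TGACG at 137 bases and TATAAA at 30 bases before the start. The Cidea window, chr18:63164567-63164816 on the plus strand, holds neither string. Of the other members in the RefSeq table, the Ppargc1a window, chr14:63634058-63634307 on the plus strand, precedes a start inside the listed gene (chr14:63073505-63729215). It holds TGACG at 181 and 178 bases before that start. These matches lie on opposite strands and overlap within a single string, TGACGTCA. Dio2, the steadiest member, holds TATAAA at 220 bases, and Elovl3 and Prdm16 hold neither motif. Among 33469 rat windows of this length, 18.2% hold TGACG and 12.9% hold TATAAA.
Ucp1 promoter: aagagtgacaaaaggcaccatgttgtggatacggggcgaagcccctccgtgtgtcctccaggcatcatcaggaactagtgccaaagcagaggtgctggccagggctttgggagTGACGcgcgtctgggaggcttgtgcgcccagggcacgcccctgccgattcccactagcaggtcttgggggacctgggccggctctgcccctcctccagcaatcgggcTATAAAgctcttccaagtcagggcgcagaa
Cidea promoter: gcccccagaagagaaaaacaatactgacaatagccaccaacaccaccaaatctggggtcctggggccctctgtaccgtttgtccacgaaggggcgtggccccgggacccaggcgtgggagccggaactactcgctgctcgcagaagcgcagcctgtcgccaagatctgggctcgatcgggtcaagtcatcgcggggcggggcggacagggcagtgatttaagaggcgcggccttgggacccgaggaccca

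Detection divided the members into a bright and a dim set. Cidea was well above background on 35 of 35 arrays, the bright Cpt1b probe on 35, the bright Dio2 probe on 34 and Ucp1 on 27. Ppargc1a was detected on 9 arrays, 5 of them outside slide 3, and Elovl3 on 4, all on slide 3. The second Cpt1b probe was detected on 9 arrays and the other Dio2 probes on 13 and 4, so within each of these genes the probes disagreed on whether the transcript was seen. The Cpt1b probes lie at chr7:127771418-127771477 (bright) and chr7:127778989-127779346 (dim), and the bright Dio2 probe at position 238559 to 238618 of chr4_random, on rn3. In the BPA25 with I3C group, which has no array on slide 3, neither Ppargc1a nor Elovl3 was detected on any array. Elovl3 was likewise not detected in the other groups without slide 3, BPA250 with genistein and BPA250 with I3C. Ppargc1a was detected on all 4 slide 3 arrays, its only detections in control, BPA25 and BPA25 with genistein. Because detection on slide 3 was high for nearly every probe, the dim members carry no comparison between groups; their group means ran from -3.97 to -2.94 for Ppargc1a and from -3.73 to -3.06 for Elovl3.

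**Figure D1:**
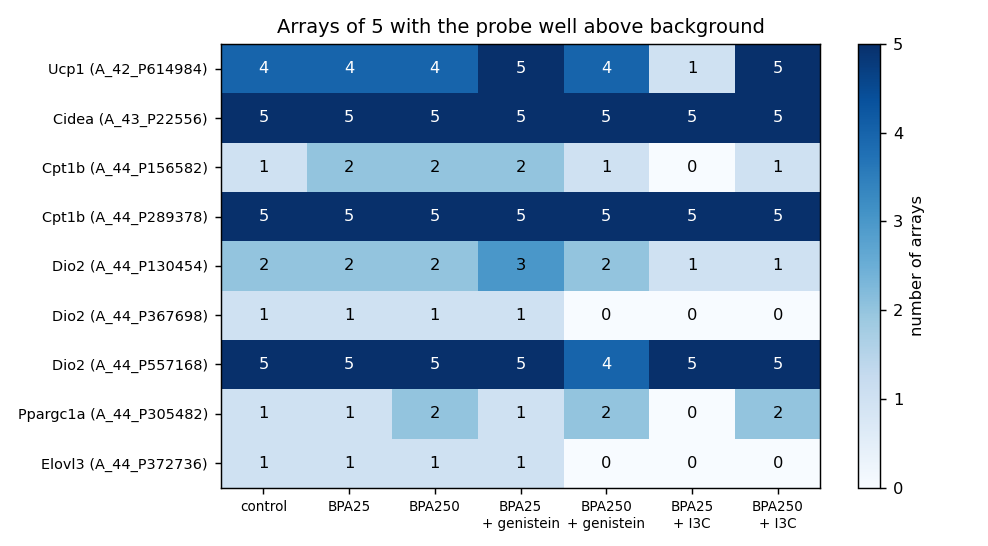
Number of arrays, of 5 per group, on which each of the 9 member probes was well above background; rows are probes with their array identifiers and columns are groups. Cidea, the bright Cpt1b probe and the bright Dio2 probe were detected on 4 or 5 arrays of every group, Ucp1 on 1 array of BPA25 with I3C and on 4 or 5 of the other groups, and the remaining probes on 0 to 3.

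Ucp1 was the member that varied most. On the 27 arrays where it was well above background it ran from -3.42 to 2.06, a 44.5-fold range. Over all 35 arrays its SD within groups (1.43) was larger than that of 97.5% of genes tested, and 8 of those arrays carry a Ucp1 value not well above background, of little order. The 10 Ucp1 spots of an array differed far less: on the 27 arrays where it was detected, the SD of log2 signal between spots had a median of 0.169 and a highest value of 0.764. In contrast, the within-group SD was 0.51 for Cidea and 0.30 for Dio2, which exceeded that of 22.8% and 2.21% of genes.

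In control glands Ucp1 read -3.90, 0.43, -0.70, -2.62 and 0.47 in replicates 1 to 5. With BPA25 it read -0.54, -2.81, -2.05, -1.37 and -3.78, and with BPA250 -3.91, -3.42, -3.28, 0.25 and -1.54. Each of these groups held at least 1 array with Ucp1 near or above the 75th percentile and 1 array, not well above background, far below it, and the 3 groups overlapped over most of their range.

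With genistein, Ucp1 was -0.58, -2.85, -0.92, -1.64 and -0.83 at BPA25 and 1.27, -2.16, -0.31, -1.13 and -0.05 at BPA250. With I3C it was -4.51, -1.88, -2.34, -3.20 and -2.76 at BPA25, where only replicate 2 was detected, and 2.06, 0.63, -0.27, -1.73 and 1.88 at BPA250, where all 5 arrays were detected. The I3C groups at the 2 BPA doses did not overlap: the lowest array at BPA250 lay above the highest at BPA25.

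From the lowest group mean to the highest, Ucp1 was -2.94 ± 1.00 (SD, n = 5) in BPA25 with I3C, -2.38 ± 1.72 in BPA250, -2.11 ± 1.26 in BPA25, -1.36 ± 0.92 in BPA25 with genistein, -1.27 ± 1.94 in control, -0.48 ± 1.28 in BPA250 with genistein and 0.51 ± 1.57 in BPA250 with I3C. All 6 gaps between neighbours in this order were smaller than the SD of either neighbour.

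**Figure D2:**
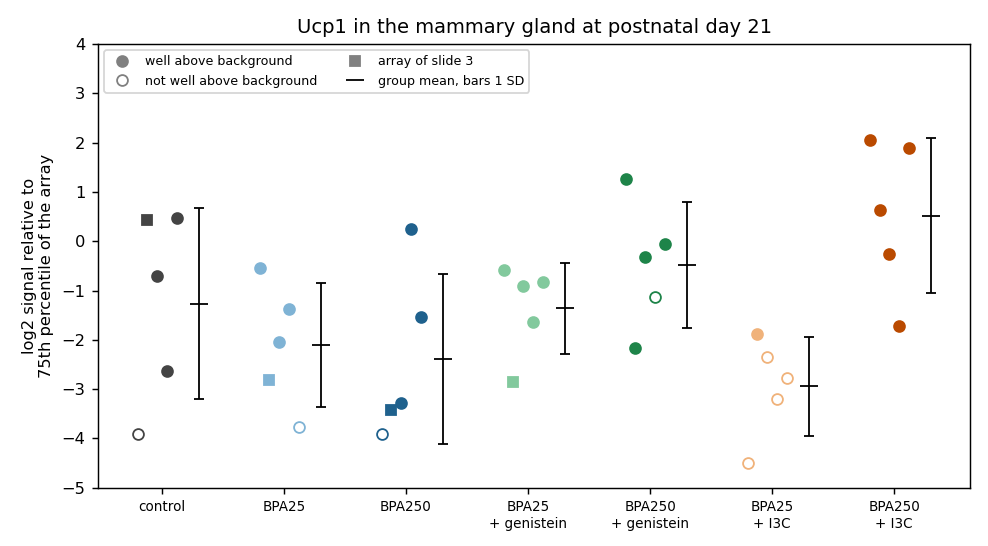
Ucp1 level on each array (y axis, log2 signal relative to the 75th percentile of the array) by group (x axis); filled symbols are arrays with Ucp1 well above background, open symbols arrays without, squares arrays of slide 3, and black bars the group mean with 1 SD of 5 arrays. The 5 arrays of BPA250 with I3C lie between -1.73 and 2.06, above all 5 of BPA25 with I3C (-4.51 to -1.88), while the other groups overlap.

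The F test for any difference among the 7 groups gave Ucp1 a Benjamini-Hochberg adjusted p of 0.552 in limma, so it did not pass. Of the 4 members tested, 0 passed this test after adjustment (0.00619% of all genes passed) and 1 had an unadjusted p under 0.05 (4.04% of all genes). I3C at BPA250 showed the largest difference among the 6 planned comparisons: Ucp1 averaged 2.89 ± 0.84 (SE) log2 units above BPA250 alone, with adjusted p = 0.766, and 2.63 above it without slide 3 (adjusted p = 1.00). Ucp1 was well above background on 5 of 5 arrays with I3C, with 10 of 10 spots on each, and on 4 of 5 without. In BPA250 alone, replicate 2 lies on slide 3, and replicates 3 and 5 passed with 6 of 10 spots. Of the 5 arrays with I3C, 3 lay above every BPA250 array. Genistein at BPA250 gave a difference of 1.90 ± 0.84 with adjusted p = 1.00, and 1 of 5 arrays lay above every BPA250 array. Both comparisons use the same BPA250 arrays, in which Ucp1 was -2.38 against -1.27 in control.

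The comparison of the I3C groups, chosen after these values had been seen, gave 3.45 ± 0.84 (higher at BPA250) with adjusted p = 1.00. With I3C at BPA25 Ucp1 was well above background on 1 of 5 arrays, so the size of this difference rests on values near background, and with normexp background correction and quantile normalization it was 1.42. Among all genes, 1.14% lay higher at BPA250 with no overlap in this comparison and 2.72% had an unadjusted p under 0.05, while 0% passed after adjustment. With slide as a random block the difference was 3.59 with an adjusted p of 0.0470, one of 41 genes (0.254%) that passed that fit. With slide as a fixed block the adjusted p was 0.0997. Of the 4 slides that hold arrays of both groups, slide 4 had Ucp1 well above background in both, with a difference of 1.61. On slides 2, 8 and 9 Ucp1 was well above background at BPA250 and not at BPA25, and those differences have no measured size.

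I3C and BPA250 alone shared only slide 1, where Ucp1 was 2.06 with I3C and not well above background (-3.91) without. Genistein and BPA250 alone shared slides 5 and 10, where the differences were 2.97 and 1.48. At BPA25, I3C gave a Ucp1 difference of -0.83 ± 0.84 and genistein 0.75 ± 0.84, both with adjusted p = 1.00. Within slides both took the other sign: I3C and BPA25 alone shared slide 9, where the difference was 0.58 with neither array well above background, and genistein and BPA25 alone shared slides 3 and 7, with -0.03 and -0.27. The Ucp1 difference for I3C at BPA25 was -0.19 with the authors' values, -0.43 without BPA25 replicate 1 and -0.44 without replicate 1 of BPA25 with I3C, and that for genistein was 0.25 with normexp and 0.33 without BPA25 replicate 5. The I3C difference at BPA250 exceeded that at BPA25 by 3.72 ± 1.19 (adjusted p = 1.00, unadjusted p under 0.05), and the genistein difference by 1.15 ± 1.19 (adjusted p = 1.00). For these 2 interactions, also added after the values were seen, 3.16% and 1.16% of all genes had an unadjusted p under 0.05.

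The size of the Ucp1 differences at BPA250 moved with the setting. With normexp background correction and quantile normalization, I3C at BPA250 against BPA250 gave 1.28 (adjusted p = 0.877), and with the authors' values 1.81 (adjusted p = 0.872). Genistein at BPA250 gave 0.71 (adjusted p = 0.850) and 1.08 (adjusted p = 0.844) in the same settings, and 1.64 (adjusted p = 0.425) without slide 3. For genistein the unadjusted p was above 0.05 in 4 of 13 alternatives (these 3 and quantile normalization, 1.86) and in 5 of 10 fits without 1 array (BPA250 replicates 1, 2 and 3, and replicates 1 and 5 of BPA250 with genistein), where the difference was 1.46 to 1.79. The direction was kept in all of these.

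Against control, BPA alone gave Ucp1 differences of -0.84 ± 0.84 at BPA25 and -1.11 ± 0.84 at BPA250, both with adjusted p = 1.00. Without slide 3 these Ucp1 differences were -0.24 and -0.43, and without control replicate 1 they were -1.50 and -1.77. For BPA250 the unadjusted p was under 0.05 without control replicate 1 and without BPA250 replicate 4 (-1.77), and for BPA25 leaving out control replicate 2 or 5 or BPA25 replicate 5 gave -0.42, -0.41 and -0.43. On the slides that hold both groups these differences took both signs, from -4.25 to 3.37 for BPA25 and from -3.85 to 0.95 for BPA250, and 1 array of the pair behind each of the values -4.25 and 3.37 was not well above background.

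Cpt1b, the gate for fatty acid entry into mitochondria, was bright in every gland and highest with I3C at BPA250, at 4.28, 3.91, 3.23, 3.70 and 4.16. With BPA250 alone it was 3.00, 0.84, 2.37, 3.62 and 3.11, where 0.84 is the array of slide 3. The groups overlapped, but 4 of the 5 I3C arrays lay above every BPA250 array. The difference was 1.27 ± 0.48, or 2.41-fold, with adjusted p = 0.766. Without slide 3 it was 0.83 (adjusted p = 1.00) and with slide as a fixed block 0.71 (adjusted p = 0.690), and leaving out BPA250 replicate 2 alone gave 0.83 with an unadjusted p above 0.05. At BPA25, I3C gave 0.34 ± 0.48, and -0.09 without slide 3. The remaining planned Cpt1b differences ran from -0.20 to 0.12.

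Control glands held Cpt1b at 2.31, 1.55, 3.22, 3.42 and 3.46. With BPA25 it was 3.29, 1.16, 3.45, 3.76 and 2.85, and with BPA25 and genistein 3.86, 1.51, 3.23, 3.44 and 3.07. In each of these groups the lowest value is the array of slide 3. With BPA250 and genistein Cpt1b was 3.09, 2.78, 2.09, 2.92 and 2.64, and with BPA25 and I3C 2.89, 3.51, 3.00, 4.16 and 2.66. The dim second Cpt1b probe, detected on 0 to 2 arrays per group, had group means from -3.66 in BPA25 with I3C to -2.76 in BPA250 with I3C.

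Cidea, which promotes lipid storage in droplets of brown fat and is also known from mammary tissue, was high in all 35 glands and close between groups. Its group means ran from 2.96 ± 0.43 in BPA25 with I3C to 3.23 ± 0.27 in BPA250 with I3C, a span of 0.26. In controls it was 2.95, 2.48, 3.18, 3.29 and 3.17. With I3C at BPA250 it was 2.94, 3.18, 2.98, 3.55 and 3.46. The 6 planned differences lay between -0.04 and 0.14 with an SE of 0.33, and the adjusted F test p was 1.00. Without slide 3 the Cidea differences lay between -0.23 and 0.23, and those of both diets against BPA250 alone turned from above 0 (0.03 and 0.11) to below it (-0.23 and -0.15). With an SE of this size, differences as small as those between the Cidea means were not detectable with 5 arrays per group.

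Dio2, the deiodinase that activates thyroid hormone, was steady as well, with group means from -0.16 ± 0.11 (BPA25) to 0.25 ± 0.27 (control) and an adjusted F test p of 1.00. Control glands read -0.21, 0.46, 0.23, 0.34 and 0.43, and BPA25 glands -0.23, -0.03, -0.31, -0.08 and -0.13. The difference of BPA25 from control was -0.41 ± 0.23 with adjusted p = 1.00, and -0.38 without slide 3, and Dio2 was lower with BPA25 on all 4 slides that hold both groups. With genistein at BPA25, Dio2 was 0.03, 0.13, 0.12, 0.08 and 0.28, above all 5 arrays of BPA25 alone. Of all genes, 0.161% showed such a separation in that direction. This share was counted only for comparisons in which a member separated, so it is a description and not a test. The difference in limma was 0.29 ± 0.23 (unadjusted p = 0.22, adjusted p = 1.00), with an SE that limma takes from the spread over all 7 groups. The widest group was BPA250 with genistein, from -0.45 to 0.96.

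**Figure D3:**
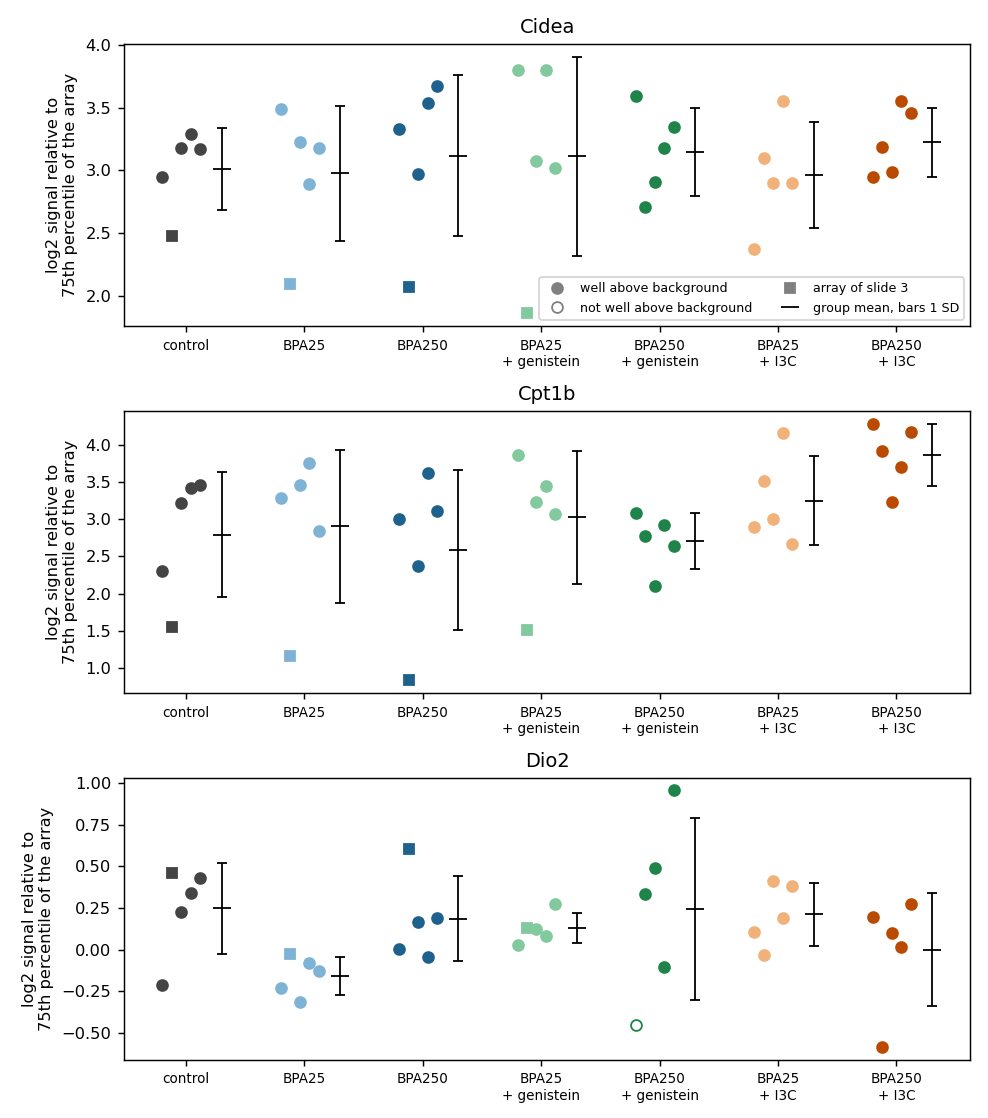
Levels of Cidea, Cpt1b and Dio2 (y axes, log2 signal relative to the 75th percentile of the array; the scales differ between panels) on each array by group, with symbols as for Ucp1. The squares, arrays of slide 3, are the lowest of their groups for Cidea and Cpt1b, and Cpt1b is highest in BPA250 with I3C at 3.23 to 4.28.

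Over the 4 bright members, 0 of 4 passed adjustment in every planned comparison. The unadjusted p was under 0.05 for 0 of 4 with BPA25 against control (2.01% of all genes), 0 of 4 with BPA250 against control (0.991%), 0 of 4 with genistein at BPA25 (4.73%), 1 of 4 with genistein at BPA250 (4.21%), 0 of 4 with I3C at BPA25 (4.33%) and 2 of 4 with I3C at BPA250 (4.33%). After adjustment, limma called 0% of all genes for BPA25 against control, BPA250 against control, genistein at BPA250 and I3C at BPA250, 0.00619% for genistein at BPA25 and 0.0124% for I3C at BPA25. Few genes of any kind passed in these comparisons.

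**Figure D4:**
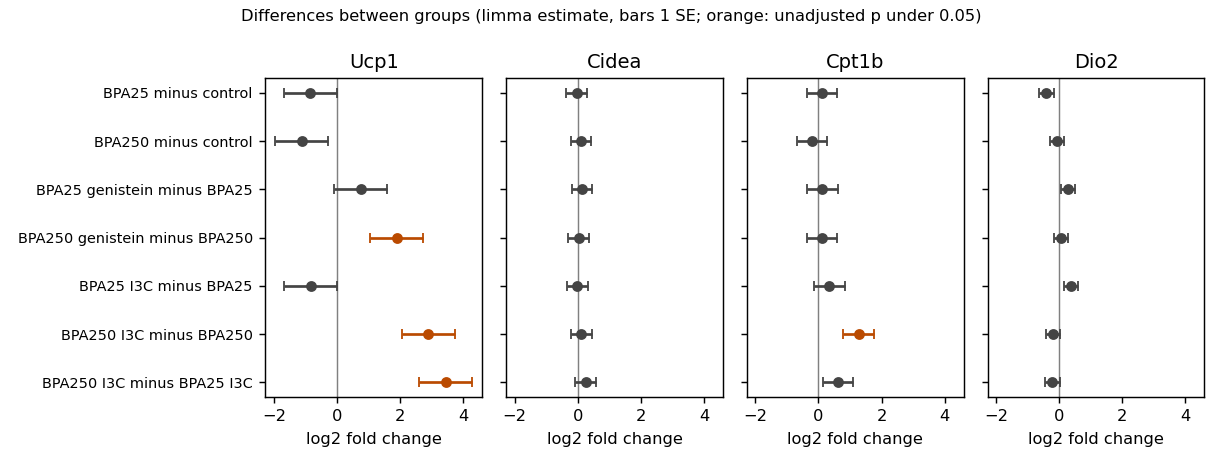
Log2 fold changes (x axis) of Ucp1, Cidea, Cpt1b and Dio2 in 7 comparisons (rows), with bars of 1 SE from limma; orange marks an unadjusted p under 0.05. The orange points are Ucp1 for genistein and I3C at BPA250 (1.90 and 2.89) and for the I3C groups against each other (3.45), and Cpt1b for I3C at BPA250 (1.27).

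Among the bright members, r over all 35 arrays was above 0 for each pair of Ucp1, Cidea and Cpt1b. Dio2 had r from -0.31 to 0.00 with these genes. With values centred on group means outside slide 3, r was 0.30 to 0.55 among Ucp1, Cidea and Cpt1b. For Dio2 with them it was then -0.15 to 0.08. Of 14 relations computed (6 pairs, and each member with the mean of 16 skeletal muscle markers and of 13 white adipocyte markers), 3 passed adjustment in Pearson's r over all 35 arrays, in each of which the arrays of slide 3 lie apart: Cidea with Cpt1b (r = 0.75, Spearman's rho = 0.60), Cidea with the white adipocyte markers (r = 0.81, rho = 0.64) and Cpt1b with the white adipocyte markers (r = 0.75, rho = 0.46). Their permutation p-values were 1e-05, 1e-05 (the smallest that 100000 permutations can give) and 2e-05, with adjusted p-values of 7e-05, 7e-05 and 9.33e-05. On the 31 arrays outside slide 3, 0 of the 14 relations passed: r was 0.42 for Cidea with Cpt1b (permutation p = 0.0191, adjusted p = 0.0889), 0.47 for Cidea with the white adipocyte markers (p = 0.00789, adjusted p = 0.0744) and 0.22 for Cpt1b with them (p = 0.242, adjusted p = 0.376). Without the 2 arrays farthest in Cidea, these became 0.42 and 0.56 for the first pair of relations, and 0.22 without the 2 farthest in Cpt1b for the last.

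Ucp1 and Cpt1b had r = 0.41 (rho = 0.46) over 35 arrays, with permutation p = 0.0144 and adjusted p = 0.0505 for r and p = 0.00619 and adjusted p = 0.0217 for rho. On 31 arrays r was 0.45 (rho = 0.44, permutation p = 0.0106 and 0.014, adjusted p = 0.0744 and 0.0836), and 0.27 without the 2 arrays farthest in Ucp1, so the relation rests in part on those arrays. With values centred on each slide r was 0.52. Ucp1 and Cidea had r = 0.34 (permutation p = 0.042, adjusted p = 0.118), and Ucp1 and Dio2 had r = 0.00 (permutation p = 0.987, adjusted p = 0.987).

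By the rule of the 5 highest Pearson r over 35 arrays, Cpt1b was most like Kgd4 (0.94), LOC683663 (0.94), Ndufv3 (0.94), Sdhd (0.93) and the probe A_44_P100565 (0.93). Ndufv3 encodes a subunit of respiratory complex I, Sdhd an anchor of complex II, and Kgd4 a component of the 2-oxoglutarate dehydrogenase complex. On the 31 arrays outside slide 3 Kgd4, Ndufv3 and LOC683663 were again the first 3, at 0.87, 0.85 and 0.85. Cidea was most like Pcca (0.87), Fah (0.86), Tspo (0.86), Ldhb (0.86) and Idh3g (0.86); Pcca, a mitochondrial propionyl-CoA carboxylase subunit, and Ldhb were again among the first 5 outside slide 3, at 0.69 and 0.67.

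For Ucp1 the likeness was weaker: AW143635 (0.55), Atg3 (0.54), BM383868 (0.54), AA998476 (0.52) and AW535419 (0.51) led, of which Atg3, an autophagy conjugation enzyme, also led outside slide 3 (0.60). Cpt1b was rank 56 and Cidea rank 242 among the genes most like Ucp1. For Dio2 the first 5 were named in the files only by transcript identifiers, with r from 0.63 to 0.65. These correlations are descriptions over arrays that share slides, and many genes share the slide differences.

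**Figure D5:**
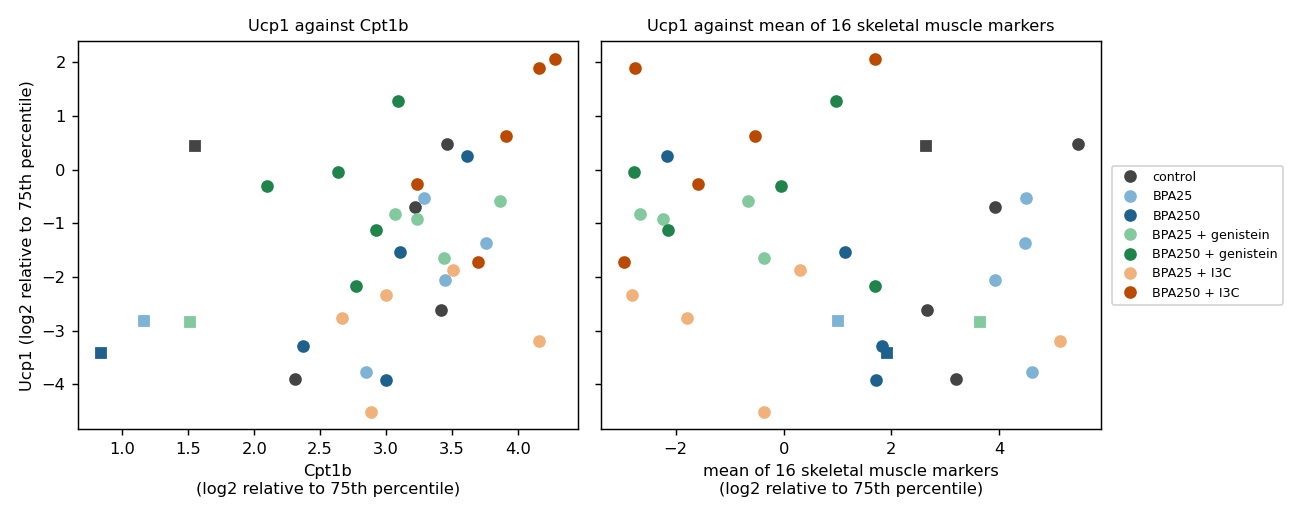
Ucp1 (y axis) against Cpt1b (left) and against the mean of 16 skeletal muscle markers (right), all in log2 relative to the 75th percentile of the array, with 1 point per array coloured by group and squares for slide 3. Ucp1 and Cpt1b had r = 0.41 over 35 arrays, with the slide 3 arrays at low Cpt1b, and Ucp1 and the muscle markers had r = -0.25.

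Other genes of the thermogenic programme were counted by role. In the F test for any difference among the groups, 0 of the measured genes passed in each of 7 lists. Brown-enriched mitochondrial genes had 6 of 10 listed genes measured, of which 3 (Fabp3, Cox8b and Ucp3) had an unadjusted F test p under 0.05 (4.04% of all genes). Ucp3 is also counted in the list of other Cide and uncoupling genes below. Fabp3, a fatty acid carrier of heart, muscle and brown fat, had the smallest adjusted F test p of the 3 (0.341). Its mean was 0.38 in control, 0.77 in BPA25 and -0.87 in BPA250. With genistein it was -0.74 at BPA25 and -1.50 at BPA250, and with I3C -0.70 and 0.77. Fabp3 was well above background on 3 of 5 arrays with genistein at BPA25 and 2 of 5 at BPA250. In the other groups it was so on 5 of 5, so the genistein values rest in part on signals near background. In limma, I3C at BPA250 gave 1.64 ± 0.52 (adjusted p = 0.766), or 1.99 without slide 3. At BPA25 the differences were the other way, -1.47 ± 0.52 for I3C (adjusted p = 0.938) and -1.51 ± 0.52 for genistein (adjusted p = 0.920). The list as a whole had 3 of 6 genes higher with I3C at BPA250 and a median of 0.01, against 0.24 for all genes. Without slide 3 the median of this list was 0.001, against 0.03 for all genes. Cox8b, a cytochrome oxidase subunit of muscle and brown fat, was 4.24 in control and 0.71 in BPA250 with I3C (F test, adjusted p = 0.666). Across 35 arrays Cox8b had r = 0.91 with the skeletal muscle markers and -0.04 with Ucp1, and Fabp3 had r = 0.52 with the muscle markers and 0.09 with Ucp1.

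Among the other Cide and uncoupling genes, 5 of 6 were measured and all 5 were higher in the mean with I3C at BPA250, with a median of 0.87 against 0.24 for all genes, and 0.47 against 0.03 without slide 3. Of these, 2 had an unadjusted p under 0.05 (4.33% of all genes): Ucp3, the muscle and brown fat homologue of Ucp1, at 0.90 ± 0.25 (adjusted p = 0.766), and the more widely expressed Ucp2 at 0.87 ± 0.37 (adjusted p = 0.766). Without slide 3 they were 0.91 and 0.67, and the unadjusted p of Ucp2 was then above 0.05. Ucp1 had r = 0.33 with Ucp3.

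The fatty acid oxidation enzymes, the route downstream of Cpt1b, were all measured (12 of 12). With I3C at BPA250, 11 of 12 had a mean above BPA250 alone and the median was 0.61 against 0.24 for all genes (0.21 against 0.03 without slide 3). In limma 1 gene had an unadjusted p under 0.05 (4.33% of all genes), Acsl1, which activates long-chain fatty acids (1.11 ± 0.47, adjusted p = 0.766). The genes other than Acsl1 ran from -0.32 (Slc27a1, a fatty acid transporter) to 0.83 (Etfdh, which passes electrons to ubiquinone). Without slide 3, Acsl1 was 0.72 higher, and 1 gene that was lower also had an unadjusted p under 0.05 (3.78% of all genes). With I3C at BPA25 the median was 0.02 against 0.13 for all genes, and -0.33 against -0.02 without slide 3.

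Of the transcriptional regulators 9 of 14 were measured, and 0 had an F test p under 0.05, unadjusted; the smallest were for Nrip1, a corepressor of Ucp1, and Foxc2, at adjusted p = 1.00. Among adrenergic and thyroid input genes 11 of 12 were measured, with 0 under 0.05; the smallest were for Pde3b, which breaks down cAMP, and Prkaca, a catalytic subunit of the kinase that cAMP activates. Of brown and beige signals 7 of 10 were measured, with Fgf21, a hormone induced in stressed and activated fat, the smallest (F test, adjusted p = 1.00), from -3.73 in BPA25 with I3C to -1.99 in BPA250 with I3C, and Bmp7 next. Of the elongase and deiodinase families 5 of 8 were measured, with Elovl5 and Elovl6 the smallest. The direction of Fgf21 between the I3C groups was that of Ucp1 (1.74 ± 0.62, adjusted p = 1.00), at a level detected on 14 of 35 arrays. With I3C at BPA250 the list medians were 0.04 for regulators (5 of 9 higher), -0.00 for adrenergic and thyroid input (5 of 11), 0.12 for signals (4 of 7) and 0.50 for elongases and deiodinases (4 of 5), against 0.24 for all genes. Without slide 3 they were -0.05, -0.18, -0.10 and 0.25, against 0.03.

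White adipocyte markers were bright in every group (mean of 13 genes from 4.71 to 5.12), with Adipoq detected on 35 arrays, and Krt18 and the milk gene Csn2 were detected on 34. Of 8 brown adipocyte markers, 4 entered the test, of which 2 were higher with I3C at BPA250 (median -0.04) and 1 without slide 3. Of the others, Zic1 was detected on 3 arrays, Elovl3 on 4, Lhx8 on 14, and no probe was named Cox7a1. Ebf2 and Adrb3, which white and beige fat also express, were detected on 32 and 35.

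Skeletal muscle markers differed widely between samples. The mean of 16 markers was 3.58 ± 1.18 in control, 3.70 ± 1.53 in BPA25, 0.88 ± 1.74 in BPA250, -0.46 ± 2.50 in BPA25 with genistein, -0.46 ± 1.94 in BPA250 with genistein, 0.10 ± 3.06 in BPA25 with I3C and -1.23 ± 1.90 in BPA250 with I3C. In the comparison of I3C at BPA250 with BPA250 alone, the arrays ran from -2.96 to 1.69 with I3C and from -2.17 to 1.92 without. The white adipocyte means were 5.10 ± 0.26 with I3C and 4.79 ± 0.84 without. The lower mean rests on the slide 3 array of BPA250 alone (3.36), whose other arrays read 4.82 to 5.54. Without slide 3 the median difference of the white adipocyte markers was -0.07, against 0.03 for all genes. Ucp1 had r = -0.25 with the muscle markers (permutation p = 0.148, adjusted p = 0.257) and r = 0.21 with the white adipocyte markers (permutation p = 0.223, adjusted p = 0.312), and their part in the Ucp1 and Cpt1b differences was not tested.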

How the data were processed

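RNA of 35 glands was hybridised to 1-colour (Cy3) Agilent whole rat genome arrays. Each scan was deposited as the spot output of Agilent Feature Extraction 9.5.3.1, per the submitters' processing notes. Per the file headers, the processed signal is a background-subtracted, detrended intensity, and the mean and background signals are intensities without correction. Deposited 0 or 1 flags (other) mark outliers and signals well above background. The authors' value table holds log2 values with column medians from 6.55 to 6.58; its normalization is not given in the sources used here.

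For each array, log2 of the processed signal had the 75th percentile over its probe spots subtracted, without outlier spots, and repeated spots of a probe were averaged. Probes well above background on at least 4 of 5 arrays of a group were kept, the brightest per gene, with at most 5 missing values: 16152 genes, 9396 of them named through RefSeq. A model of the 7 groups used limma 3.58.1 (lmFit and eBayes) in R 4.3.3 with the data.table package, version 1.17.8, with Benjamini-Hochberg adjustment over all genes and a threshold of 0.05. Correlations used 100000 permutations (Python). The fit was tested on simulated data with planted changes larger than any member difference and independent noise between arrays. That test cannot show how the fit handles differences between slides. The number of arrays limits the precision.

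Members and lists were chosen with earlier results of these data known. Members were named with their direction where the unadjusted p was under 0.05, and from each list up to 2 genes of smallest F test p.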

Additional observations from a re-analysis of the deposited data

Results flagged for a closer look

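The I3C difference in Ucp1 was 2.89 at BPA250 and -0.83 at BPA25. It is given here because the interaction in limma, 3.72 ± 1.19, had an unadjusted p under 0.05, but it did not pass after adjustment over all genes (adjusted p = 1.00). At BPA25, 1 of 5 arrays with I3C had Ucp1 well above background, and at BPA250 5 of 5. Without the arrays of slide 3 the interaction was 3.64 (adjusted p = 0.396), and with normexp background correction and quantile normalization 1.43 (adjusted p = 1.00).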

How the results depend on the processing

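Counts of genes passing the F test, 1 with the settings reported, were 2 with the percentile over probes detected on all arrays, 2 with quantile normalization, 0 in the authors' table, without a filter on dim probes, with probes detected on at least 18 arrays, with every passing probe and with outlier spots kept, 5 with slide as a fixed block, 136 with slide as a random block, 9 with scan day as a block and 25 without slide 3. Leaving out 1 array gave 0 to 65, the most without BPA25 with I3C replicate 4. For genistein at BPA25 (1 gene), the count was 0 with the percentile over detected probes, the authors' table, no filter, the 18-array filter, outlier spots kept and the fixed slide block, 2 with scan day and 19 without slide 3; leaving out 1 array gave 0 to 7, the most without BPA25 with genistein replicate 2. For I3C at BPA25 (2 genes), it was 1 with the percentile over detected probes and with quantile normalization, 0 with normexp, the authors' table, no filter, the 18-array filter, outlier spots kept and the fixed slide block, 5 with scan day, 4 with the replicate block and 9 without slide 3; leaving out 1 array gave 0 to 22, the most without BPA25 with I3C replicate 4. For genistein at BPA250 (0 genes), it was 1 in the authors' table, 4 with the fixed and 76 with the random slide block. The random slide block gave 2 for I3C at BPA250, 41 for the I3C groups against each other and 8 for the I3C interaction, whose count with the fixed block was 1. The genistein interaction gave 1 with the percentile over detected probes and 1 with the replicate block. Leaving out 1 array gave 0 to 0 for the other comparisons. The cause of these changes was not tested.

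The 5 member differences with p under 0.05 kept their direction under all 13 alternatives and without any 1 array. Over the alternatives, Ucp1 with I3C at BPA250 ran from 1.28 to 3.48 (adjusted p 0.164 to 1.00), Ucp1 between the I3C groups from 1.42 to 3.61 (adjusted p 0.0470 to 1.00), Ucp1 with genistein at BPA250 from 0.71 to 2.37 (adjusted p 0.186 to 1.00) and Cpt1b with I3C at BPA250 from 0.71 to 1.27 (adjusted p 0.314 to 1.00). The replicate block changed no member's call. The labels do not say that a replicate number marks a shared litter or batch, so the numbers were not used as pairs. Of array pairs from different groups sharing a number, 69 of 105 correlated above 0.1 in deviations from the group means (median r 0.20, lowest -0.37). With different numbers 142 of 420 pairs did (median r -0.02), and on the same slide 44 of 48 pairs did (median r 0.29). Replicate numbers and slides partly coincide, so likeness by number and by slide cannot be told apart here. Ucp1 lies near background on 8 arrays, where the signal carries little order.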
